A study of Mus musculus with 8 samples.

Results

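Transcription factors that direct the choice between monocyte and granulocyte were followed in total bone marrow (BM) of Gfi1 KD and Gfi1 KO mice: Spi1, Cebpa, Cebpb, Cebpd, Cebpe, Irf8, Irf4, Klf4, Egr2 and Nr4a1. These 10 genes were taken by name from the 41214 genes in the count files, and all 10 were found there. RNA-seq was done on 8 C57Bl6 mice in 4 groups of 2: Gfi1 KD young (39 and 42 days old), Gfi1 KO young (48 and 44 days), Gfi1 KD sick (187 and 78 days, labelled AML, and described in the study as myeloproliferative disease) and Gfi1 KO old (158 and 101 days, labelled free of AML). KD mice carry a human GFI1 cDNA in the Gfi1 locus together with a neo cassette that keeps its expression low, KO mice lack Gfi1, and no wild-type mouse is among the groups. Age, disease and genotype are joined in these groups, so that sick KD differs from old KO in both genotype and disease, and from young KD in both age and disease.

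PU.1, the product of Spi1, opens myeloid enhancers and works with the C/EBP factors to build the common granulocyte and monocyte programme. C/EBPα and then C/EBPε lead towards the neutrophil, whereas IRF8, KLF4, EGR2 and NR4A1 lead towards monocytes, macrophages and patrolling monocytes, and IRF4 is best known from dendritic cells, B cells and plasma cells. The repressor GFI1 sits opposite PU.1 and EGR2 in this circuit and favours the granulocyte side.

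The libraries held 26642067 to 42679114 counts on genes. Reads that the counting assigned to no feature made up 42.0% and 38.8% in sick KD mice and 26.9% to 33.8% in the other 6 libraries. These shares are of the reads assigned to a gene, to no feature or tallied as ambiguous. The counting mode and strand setting are not given, so whether these reads lay inside or outside genes is not known. Mitochondrial genes took 1.42% and 1.16% of counts in sick KD mice against 0.464% to 0.787% elsewhere. Gfi1 itself, the targeted gene, had 6.20 and 7.01 CPM (counts scaled to library size, here normalized by TMM) in young KD, 14.2 and 14.4 in young KO, 5.43 and 7.08 in sick KD and 13.2 and 29.9 in old KO mice, so the mice labelled KO lay above those labelled KD. Only mouse genes were counted, the GFI1 of KD mice comes from a human cDNA, and the exons missing from the KO allele are not given in the sources used here, so this level does not check the labels.

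In young mice none of the 10 factors differed between KO and KD past the threshold of the test. Against young KD, sick KD mice had lower Irf4 (7.05-fold) and Egr2 (3.79-fold) and higher Klf4 (1.5-fold), and against sick KD, old KO mice had higher Irf4 (3.33-fold). Spi1, Cebpa, Cebpb, Cebpd, Cebpe, Irf8 and Nr4a1 passed the threshold in none of the 5 comparisons.

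Differences were tested with edgeR's quasi-likelihood test, and a factor was called where its p, adjusted by Benjamini-Hochberg over all genes tested, was under 0.05. Between young KO and young KD, 0 of the 10 factors were called, where 0.0404% of all genes tested were called. An unadjusted p under 0.05 was reached there by 3 factors (Cebpa, Irf4 and Nr4a1), and DESeq2 also called 0. The 2 mice of each young group differed from each other in some cell markers. Erythroid markers summed to 4782 and 2002 CPM in young KD and 1881 and 4130 in young KO mice. Megakaryocyte markers ran the other way, at 172 and 430 in young KD and 468 and 115 in young KO mice. The bearing of this split on the young comparison was not tested. Between old KO and sick KD, 1 of 10 factors was called against 18.1% of all genes. Between sick KD and young KD, 3 of 10 were called against 20.9% of all genes. Between old KO and young KO, 0 of 10 were called against 0.929% of all genes, with an unadjusted p under 0.05 for 2 factors (Cebpd and Irf4), and DESeq2 called 1, Irf4. The interaction, in which the young KO minus young KD difference is taken from the old KO minus sick KD difference, was called for 1 of 10 factors against 7.43% of all genes. The old and sick comparisons share their groups with one another, so their counts are not separate evidence. The median log2 fold change of the 10 factors was 0.06 for old KO against sick KD and 0.13 for sick KD against young KD, and over all genes tested it was -0.0050 and 0.01.

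**Figure D1:**
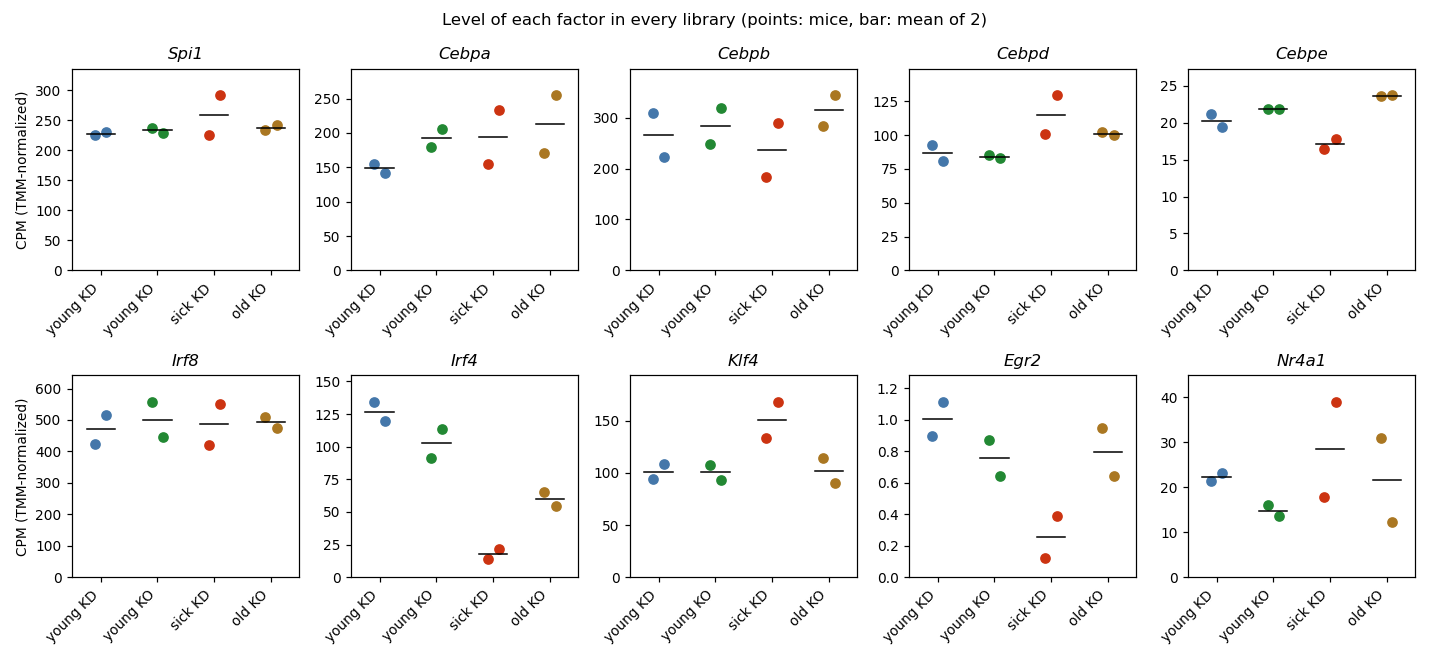
Level of each factor in every library, in TMM-normalized CPM on a linear axis from 0, with 1 point per mouse and a bar at the mean of the 2 mice of a group. Irf4 steps down from 134 and 119 CPM in young KD to 13.98 and 21.7 in sick KD, Egr2 stays under 1.2 CPM throughout, and the points of Spi1 and Irf8 lie within a narrow band.

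Spi1 (ENSMUSG00000002111, GRCm38 chr2:91082390-91115756, plus strand) was among the steadiest of the 10. It had 226 and 230 CPM in young KD, 238 and 228 in young KO, 225 and 293 in sick KD and 234 and 242 in old KO mice. A single library, sick KD replicate 2, lay above the other 7, and the groups overlapped in every comparison. The highest library was 1.30 times the lowest, a smaller range than that of the median gene (1.44) among 10355 genes with a mean of at least 5 CPM, and 27.3% of these genes had a smaller range than Spi1. The log2 difference was 0.02 between young KO and young KD, with a 95% interval from -0.15 to 0.20, and -0.14 between old KO and sick KD, from -0.51 to 0.24. The genes whose profile over the 8 libraries lay nearest to that of Spi1 were Coro1b, Llgl1 and Pcif1, with root mean square differences of 0.0295, 0.0375 and 0.0384 on the centred log2(CPM + 1) scale, out of 9922 protein-coding genes ranked.

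The C/EBP factors had wider ranges than Spi1. Their highest library was 1.79 times the lowest for Cebpa, 1.88 times for Cebpb, 1.61 times for Cebpd and 1.45 times for Cebpe, and 78.0%, 80.8%, 67.8% and 51.5% of the 10355 genes had a smaller range. Cebpa (ENSMUSG00000034957, chr7:35119293-35121928), the factor that starts the granulocyte programme, had 154 and 142 CPM in young KD, 180 and 205 in young KO, 155 and 233 in sick KD and 172 and 255 in old KO mice. Both young KO mice lay above both young KD mice, whereas the sick KD and old KO mice overlapped widely. The young difference was 0.37 on the log2 scale (SE 0.10, unadjusted p = 0.00995), and it did not pass after adjustment over all genes by edgeR (adjusted p = 0.999987). Cebpb (ENSMUSG00000056501, chr2:167688915-167690418), which drives granulocyte production under stress, had 309 and 223 CPM in young KD, 249 and 319 in young KO, 183 and 289 in sick KD and 283 and 345 in old KO mice. Its groups overlapped in every comparison, and the 2 sick KD mice differed from each other by more than any group means did. Cebpd (ENSMUSG00000071637, chr16:15887286-15891031), a C/EBP induced by inflammatory signals, had 93.0 and 80.7 CPM in young KD, 85.4 and 82.9 in young KO, 101 and 130 in sick KD and 102 and 100.2 in old KO mice. All 4 old or sick mice lay above all 4 young mice, but neither step passed by edgeR, with a log2 difference of 0.42 (SE 0.15, adjusted p = 0.0961) in KD and 0.27 (SE 0.08, adjusted p = 0.306) in KO mice. In KD mice the step passed by edgeR with all 8 libraries in 1 fit (adjusted p = 0.0401) and without the filter on low counts (adjusted p = 0.0316). The exons of Cebpb share 312 bases with Tmem189 on the other strand and those of Cebpd share 562 bases with Spidr on the other strand, and the strand setting of the read counting is not given in the sources used here, so that these 2 levels are less certain.

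Cebpe (ENSMUSG00000052435, chr14:54710360-54712174, minus strand), which is needed for the specific granules of neutrophils, had its lowest values in sick KD mice. It had 21.2 and 19.4 CPM in young KD, 21.8 and 21.9 in young KO, 16.4 and 17.8 in sick KD and 23.6 and 23.8 in old KO mice. The sick KD mice lay below the other 6 and the old KO mice above them, without overlap. Old KO exceeded sick KD by 0.45 on the log2 scale (SE 0.14), which missed the threshold by edgeR (adjusted p = 0.0663). It passed with all 8 libraries in 1 fit (adjusted p = 0.0163) and after the dependence on GC content, length and span was taken out of each library (adjusted p = 0.0459). Arl3, Cmtr1 and 5031439G07Rik had the profiles nearest to Cebpe, with root mean square differences of 0.0393, 0.0395 and 0.0404 on the same scale.

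**Figure D2:**
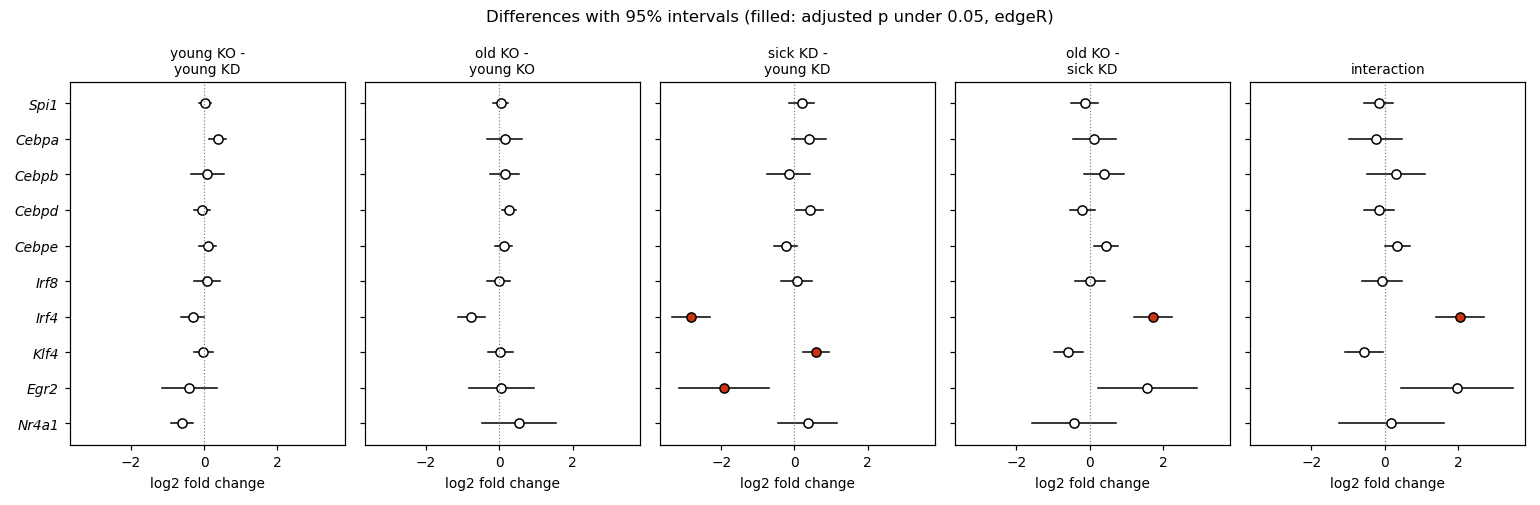
Log2 fold change of each factor in the 5 comparisons, with 95% intervals from edgeR's quasi-likelihood test. Filled points have an adjusted p under 0.05, and they are Irf4, Klf4 and Egr2 in sick KD against young KD, and Irf4 in old KO against sick KD and in the interaction.

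The related factors IRF8 and IRF4 had very different ranges. Irf8 (ENSMUSG00000041515, chr8:120736358-120756694, plus strand), which specifies monocytes and dendritic cells, had 423 and 517 CPM in young KD, 558 and 445 in young KO, 420 and 552 in sick KD and 510 and 475 in old KO mice. The groups overlapped in every comparison, and its highest library was 1.33 times the lowest, a range smaller than that of the median gene. Its log2 difference was 0.01 between old KO and sick KD, with a 95% interval from -0.40 to 0.41. Mical1, Tmem143 and Zbtb22 had the nearest profiles, at 0.0499, 0.0519 and 0.0590.

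Irf4 (ENSMUSG00000021356, chr13:30749226-30766976, plus strand) had the widest range of the 10 factors. It had 134 and 119 CPM in young KD, 91.7 and 113 in young KO, 65.2 and 55.0 in old KO and 13.98 and 21.7 in sick KD mice. The 4 groups followed one another in this order with no overlap. The highest library was 9.61 times the lowest, and 98.4% of the 10355 genes had a smaller range. Sick KD mice fell below young KD mice by 2.82 on the log2 scale (SE 0.21, edgeR adjusted p = 0.00327). Old KO mice exceeded sick KD mice by 1.74 (SE 0.22, edgeR adjusted p = 0.00566). Old KO mice differed from young KO mice by -0.77 (SE 0.15), which did not pass by edgeR (adjusted p = 0.118) but did by DESeq2 (adjusted p = 0.000308). The young KO and young KD levels, neighbours in the order, differed by -0.32 (SE 0.13, unadjusted p = 0.0458), which did not pass after adjustment by edgeR (adjusted p = 0.999987).

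The fall of Irf4 was larger in KD than in KO mice: the interaction was 2.04 on the log2 scale (SE 0.28, edgeR adjusted p = 0.0127), with 95% interval from 1.39 to 2.70. Without young KO replicate 1 it was 1.89 (adjusted p = 0.0526 by edgeR) and without young KD replicate 1 it was 1.96 (adjusted p = 0.0501 by edgeR), both above the threshold. The level of Irf8 per kilobase of exon exceeded that of Irf4 by 1.13 and 1.59 on the log2 scale in young KD and by 2.08 and 1.45 in young KO mice. In old KO mice the excess was 2.44 and 2.59 and in sick KD mice 4.38 and 4.14, so the balance of the pair moved towards Irf8 while Irf8 itself stayed in its range. The same interaction was called higher for 4.32% of all genes tested. Among the marker lists of other cells it was called higher for 8 of 10 resident macrophage, 4 of 6 plasma cell, 4 of 13 dendritic cell, 3 of 10 erythroid, 2 of 12 B cell, 2 of 10 T and NK cell, 1 of 8 eosinophil, basophil and mast cell, 1 of 8 stem and progenitor cell and 0 of 8 megakaryocyte markers.

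To show what stands in front of this pair, the RefSeq promoters of Irf4 (GRCm38.p6 chr13:30748983-30749282, plus strand) and Irf8 (GRCm38.p6 chr8:120736108-120736407, plus strand) are given 5′ to 3′, from 250 bases before to 50 bases after the RefSeq start. Capitals mark the TATA box TATAAA and the GFI1 core AATC, read on both strands (GATT is the other strand).
Irf4: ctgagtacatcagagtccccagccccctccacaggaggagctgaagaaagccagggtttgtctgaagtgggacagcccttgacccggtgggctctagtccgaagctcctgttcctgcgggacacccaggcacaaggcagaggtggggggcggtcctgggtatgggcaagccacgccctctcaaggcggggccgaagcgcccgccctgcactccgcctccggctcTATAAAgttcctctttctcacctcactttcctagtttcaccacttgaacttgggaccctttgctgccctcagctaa
Irf8: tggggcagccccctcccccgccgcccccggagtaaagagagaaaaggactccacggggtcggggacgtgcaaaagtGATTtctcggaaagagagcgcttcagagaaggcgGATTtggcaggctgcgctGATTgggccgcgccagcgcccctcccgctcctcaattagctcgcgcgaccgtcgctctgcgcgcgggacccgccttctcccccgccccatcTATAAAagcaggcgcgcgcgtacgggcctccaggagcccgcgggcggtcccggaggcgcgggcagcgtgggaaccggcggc
Both hold TATAAA close upstream of the start, with its first base at -26 in Irf4 and -31 in Irf8, a match that 13.6% of 32851 promoters of this length hold. Irf8 has 3 GFI1 cores, beginning at -174, -140 and -122, and Irf4 has none in this window, where 73.1% of all promoters have at least 1. Neither window held the PU.1 motif GAGGAAGT (3.2% of promoters), the C/EBP motif TTGCNNAA (10.8%) or the IRF motif of paired GAAA, 2 bases apart (3.44%). A match in such a window is a description of letters and not of binding.

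Irf4 is also used by B cells, plasma cells, dendritic cells and macrophages, and the markers of these cells followed it only in part. Among these lists, only the B cell markers were, in sum, lower in old KO than in young KO mice, as Irf4 was. Of all genes tested, 9.45% were called higher and 11.4% lower in sick KD against young KD mice, and 9.93% higher and 8.22% lower in old KO against sick KD mice. In sick KD against young KD mice, 12 of 12 B cell markers, 8 of 10 resident macrophage markers and 8 of 13 dendritic cell markers fell, with 1 dendritic cell marker, Flt3, that rose. The summed level of the B cell markers was 867 to 1153 CPM in young KD, 715 to 974 in young KO, 141 to 229 in old KO and 38.7 to 105 in sick KD mice, and no marker of these lists was at 0 in any library. In sum, plasma cell markers ran differently, at 392 to 451 CPM in young KD, 407 to 448 in young KO, 513 to 524 in sick KD and 641 to 898 in old KO mice. Most of the sick KD sum was Xbp1, at 404 and 392 CPM in sick KD against 265 and 270 in young KD mice. Mzb1 went the other way, from 21.7 and 18.4 CPM in young KD to 3.39 and 3.63 in sick KD mice. Of the 6 plasma cell markers, 1 was called higher and 1 lower in sick KD against young KD mice. Dendritic cell markers summed to 362 to 410 CPM in young KD, 318 to 434 in young KO, 206 to 258 in sick KD and 524 to 1234 in old KO mice, and resident macrophage markers to 268 to 329, 336 to 367, 217 to 252 and 398 to 476. In old KO mice the dendritic cell sum was led by H2-Aa (499 and 163 CPM) and H2-Ab1 (409 and 125), which the young KD mice held at 75.2 and 92.8 and at 63.9 and 83.3. Tcf4 of the same list read 76.1 and 81.9 CPM in old KO and 92.4 and 93.7 in young KD mice. In total BM, fewer cells of a type and less RNA per cell cannot be told apart, and the part of these cells in the fall of Irf4 was not tested.

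**Figure D3:**
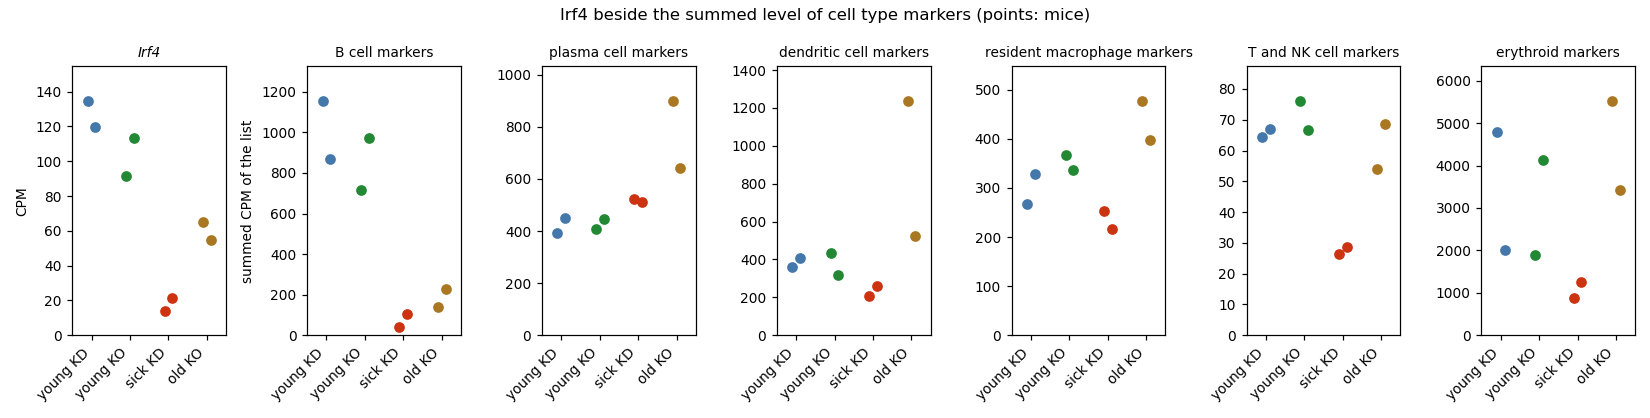
Irf4 in CPM and the summed CPM of 6 marker lists, with 1 point per mouse, on linear axes from 0. The B cell markers fall like Irf4 from young to sick KD mice, from 867 to 1153 CPM in young KD down to 38.7 to 105 in sick KD. The sums of the plasma cell and of the dendritic cell markers are highest in old KO mice. There Jchain and Xbp1 lead the plasma cell sum, and H2-Aa and H2-Ab1 the dendritic cell sum.

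Klf4 (ENSMUSG00000003032, chr4:55527143-55532466, minus strand), which PU.1 induces on the way to the monocyte, was highest in sick KD mice. It had 94.0 and 108 CPM in young KD, 108 and 92.9 in young KO, 134 and 168 in sick KD and 115 and 90.1 in old KO mice. Both sick KD mice lay above the other 6, which overlapped. Klf4 rose by 0.59 on the log2 scale from young KD to sick KD (SE 0.15, edgeR adjusted p = 0.0368). Leaving out 1 library ended this call in 3 of 4 cases, with 0.42 without sick KD replicate 2, 0.48 without young KD replicate 1 and 0.68 without young KD replicate 2 (adjusted p = 0.0597, 0.231 and 0.0501 by edgeR). Old KO mice differed from sick KD mice by -0.58 (SE 0.17), which missed the threshold by edgeR (adjusted p = 0.0602) and passed by DESeq2 (adjusted p = 0.0110). Of 12 classical monocyte markers, 5 rose in the same comparison of sick KD with young KD and 0 fell, and of 10 patrolling monocyte markers 2 rose and 1 fell. Over all genes tested, 9.45% were called higher and 11.4% lower there. The part of these cells in the level of Klf4 was not tested.

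Egr2 (ENSMUSG00000037868, chr10:67535475-67542188, plus strand), a macrophage factor that GFI1 opposes, was the scarcest of the 10. It had 36 and 37 counts in young KD, 38 and 21 in young KO, 27 and 25 in old KO and only 3 and 11 in sick KD mice, or 0.897 and 1.11, 0.873 and 0.640, 0.949 and 0.643, and 0.120 and 0.388 CPM. The sick KD mice lay below the other 6. Egr2 fell by 1.92 on the log2 scale from young KD to sick KD (SE 0.52, edgeR adjusted p = 0.0442). DESeq2 did not call it (adjusted p = 0.108), and edgeR did not without sick KD replicate 1 (-1.35, adjusted p = 0.111), young KD replicate 1 (-2.09, adjusted p = 0.0556) or young KD replicate 2 (-1.79, adjusted p = 0.0802). The difference of old KO from sick KD was 1.57 (SE 0.57, edgeR adjusted p = 0.0990). At 3 to 38 counts a library, counting error alone is a large share of the spread of Egr2. Resident macrophage markers moved with it, falling in 8 of 10 cases in sick KD against young KD mice, where 11.4% of all genes were called lower. Their part was not tested.

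The RefSeq promoter of Egr2 (GRCm38.p6 chr10:67537619-67537918, plus strand, 5′ to 3′) is shown because Egr2, like Nr4a1, is an immediate early gene, and such genes can be switched on within minutes of a signal through serum response and cAMP response elements. Capitals mark the GFI1 core (AATC or GATT), the CArG box bound by serum response factor, and ACGTCA, the other strand of the cAMP response site TGACGT.
Egr2: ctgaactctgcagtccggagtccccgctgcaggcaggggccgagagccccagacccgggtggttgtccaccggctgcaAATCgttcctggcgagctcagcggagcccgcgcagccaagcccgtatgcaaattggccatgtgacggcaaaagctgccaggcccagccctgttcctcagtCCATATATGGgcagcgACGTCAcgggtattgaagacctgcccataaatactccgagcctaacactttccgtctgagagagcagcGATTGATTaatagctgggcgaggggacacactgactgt
The CArG box begins at -72 and is held by 1.63% of all promoters of this length, and the cAMP response site at -56 is held by 7.51%. GFI1 cores begin at -172, 12 and 16, and the last 2 lie behind the start. The window of Nr4a1 held 0 CArG boxes, 0 cAMP response sites and 1 GFI1 core.

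Nr4a1 (ENSMUSG00000023034, chr15:101254269-101274795, plus strand), needed for patrolling monocytes, differed more within the sick KD and the old KO groups than between group means. It had 21.5 and 23.2 CPM in young KD, 16.1 and 13.5 in young KO, 17.8 and 39.0 in sick KD and 30.9 and 12.2 in old KO mice. The 2 young KO mice lay below the 2 young KD mice, while the sick KD and old KO mice spanned the whole range. The young difference was -0.60 (SE 0.12, unadjusted p = 0.00216) and did not pass by edgeR (adjusted p = 0.822), but it passed when genes with low counts were kept in the fit (adjusted p = 0.00665). Of 19 immediate early genes, 17 were tested in sick KD against young KD, where 3 fell and 0 rose, with 11.4% of all genes called lower and 9.45% higher, and the median log2 fold change was -0.37 against 0.01 over all genes. Their summed level overlapped between the groups, at 1608 and 1044 CPM in young KD and 951 and 1161 in sick KD mice. The 2 young KD mice differed widely in some of these genes, with Fos at 213 and 42.5 CPM and Jun at 90.0 and 23.9.

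Counting the factors whose groups did not overlap gave 5 of 10 between young KO and young KD (Cebpa and Cebpe above, Irf4, Egr2 and Nr4a1 below), where 15.8% of all genes lay above and 11.4% below. It gave 4 of 10 between old KO and sick KD (Cebpe, Irf4 and Egr2 above, Klf4 below), where 34.0% of all genes lay above and 32.0% below. Between sick KD and young KD it gave 6 of 10, against 33.0% above and 33.5% below, and between old KO and young KO 3 of 10, against 17.8% and 19.5%. Between sick KD and young KD and between old KO and young KO, the counts lay near the shares of all genes. The count lay above the share of all genes in the young comparison and below it between old KO and sick KD. None of these differences was tested.

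All 10 factors were lower in sick KD replicate 1 than in sick KD replicate 2, with a median log2(CPM + 1) difference of -0.385. Over all 10355 genes with a mean of at least 5 CPM the share lower in replicate 1 was 52.6%, but it was 92.6% among the 2063 genes with a GC content of at least 55%, a class that holds 5 of the 10 factors. In the other 3 groups 4 or 5 of the 10 factors were lower in replicate 1. Without sick KD replicate 1, the factors called between sick KD and young KD were 6, with Spi1 (0.37), Cebpa (0.66), Cebpd (0.59), Klf4 and Nr4a1 (0.81) higher and Irf4 lower. With the dependence on GC content, length and span taken out of each library they were also 6, with Spi1 (0.29), Cebpa (0.46), Cebpd (0.51) and Klf4 higher and Irf4 and Egr2 lower.

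Per kilobase of exon, the 10 factors kept nearly one order in all groups. Cebpb was the highest, at 177 ± 40.7 CPM per kilobase in young KD (SD, n = 2) and 157 ± 49.7 in sick KD mice, and Spi1 followed with 84.6 ± 1.10 and 96.1 ± 17.6. Irf8 (66.6 ± 9.48 and 68.9 ± 13.3) and Cebpa (56.3 ± 3.24 and 73.5 ± 21.0) were next, and these neighbours did not differ beyond their spread in sick KD mice. Klf4 was the fifth in all 4 groups. Irf4, at 25.9 ± 2.16 in young KD and 3.64 ± 1.11 in sick KD mice, moved from rank 6 to rank 9, below Cebpd, Cebpe and Nr4a1. Egr2 was last in every group, from 0.0747 ± 0.0557 in sick KD to 0.296 ± 0.0450 in young KD mice. With the length of the longest transcript in place of all exons, Irf8 moved to rank 2 in every group, ahead of Spi1.

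**Figure D4:**
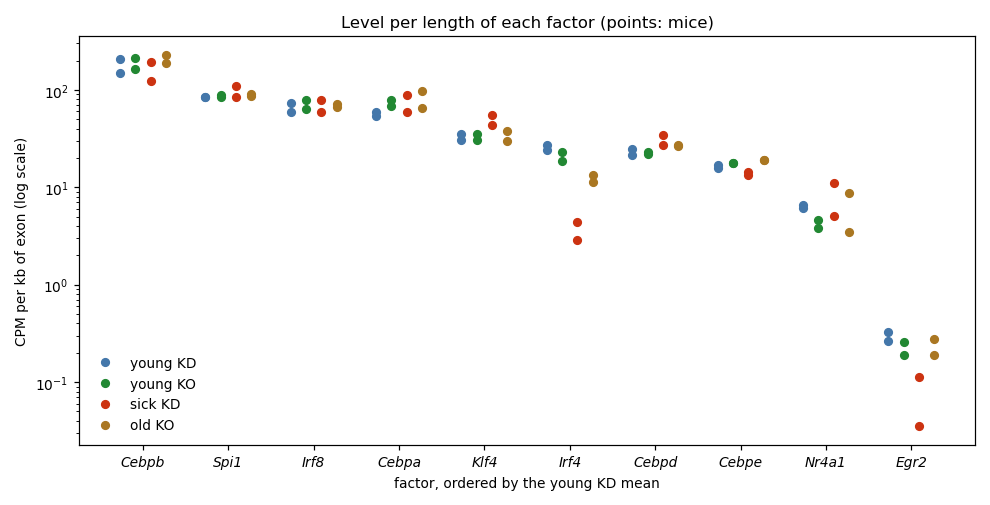
Level of each factor in CPM per kilobase of exon, on a logarithmic axis, with 1 point per mouse and the factors ordered by their young KD mean. The sick KD points of Irf4, with a mean of 3.64, lie below those of Cebpd, Cebpe and Nr4a1, and Egr2 lies below the other 9 factors in every group.

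Relatives of the factors were examined as families. Of the 8 Ets relatives of PU.1, 5 fell in sick KD against young KD mice and 0 rose, with 11.4% of all genes called lower, and the median log2 fold change was -1.03 against 0.01 over all genes. Ets1, a lymphocyte Ets factor, fell by 2.64 (SE 0.20, edgeR adjusted p = 0.00327) and was 1.60 higher in old KO than in sick KD mice (SE 0.16, edgeR adjusted p = 0.00440). The other members that fell, named after their values were seen, were Spib, the PU.1 relative of B cells and plasmacytoid dendritic cells (-4.72), Spic, that of red pulp macrophages (-1.89), Ets2 (-1.15) and Erg (-0.90). Spib read 181 and 170 CPM in young KD, 135 and 158 in young KO, 18.6 and 35.9 in old KO and 2.52 and 10.5 in sick KD mice, with no overlap between the groups. The B cell markers, of which 12 of 12 fell, summed to 867 to 1153 CPM in young KD and 38.7 to 105 in sick KD mice, and the part of B cells in the fall of Spib and Ets1 was not tested.

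Both C/EBP relatives that were called fell in sick KD against young KD mice, out of 3 tested: the stress factor Ddit3 (-1.08) and Cebpg (-0.59), which pairs with other C/EBPs. In old KO against sick KD mice both were higher, Ddit3 by 0.997 and Cebpg by 0.72 (SE 0.23 and 0.13, edgeR adjusted p = 0.0279 and 0.0130). Of the IRF relatives, Irf1 (-1.22) and Irf7 (-1.001), which carry the interferon response, fell in sick KD against young KD mice and Irf2 (0.60), which opposes Irf1, rose, with 6 tested. Old KO exceeded sick KD mice by 1.27 in Irf1 and 1.16 in Irf7, and differed from them by -0.68 in Irf2 (edgeR adjusted p = 0.00532, 0.0154 and 0.0122). Among 7 Krüppel-like relatives of Klf4, the erythroid factor Klf1 (-2.17) and Klf3 (-0.44) fell and Klf7 (0.85) and Klf13 (0.73) rose, so that the family moved both ways. None of the 3 Egr and Nr4a relatives tested was called in sick KD against young KD mice by edgeR. Over all genes tested, 9.45% were called higher and 11.4% lower in that comparison, and 9.93% higher and 8.22% lower in old KO against sick KD mice.

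Among 22 partners and inhibitors of the factors, 3 rose and 4 fell in sick KD against young KD mice, and 4 were higher and 2 lower in old KO than in sick KD mice. Over all genes these shares were 9.45% and 11.4%, and 9.93% and 8.22%, so that the counts of this list lay near the background. Id2, an inhibitor of E proteins, rose from 58.3 and 56.0 CPM in young KD to 176 and 145 in sick KD mice, and it read 47.5 and 46.0 in young KO and 49.0 and 53.8 in old KO mice. The sick KD mice stood apart from the other 6, and old KO differed from sick KD by -1.66 on the log2 scale (SE 0.14, edgeR adjusted p = 0.00346). Trib2, a Tribbles protein known to bring about C/EBPα breakdown, had 24.1 and 23.0 CPM in young KD, 17.1 and 19.5 in young KO, 8.85 and 8.95 in old KO and 1.84 and 2.89 in sick KD mice. Its log2 fold change was -3.30 in sick KD against young KD and 1.89 in old KO against sick KD mice (SE 0.23 and 0.28, edgeR adjusted p = 0.00262 and 0.00838). The erythroid factors Gata1 and Gfi1b, both in this list, fell by 1.70 and 1.57 in sick KD against young KD mice (edgeR adjusted p = 0.0124 and 0.0116). Erythroid markers fell with them in 10 of 10 cases, their sum being 2002 to 4782 CPM in young KD and 889 to 1256 in sick KD mice, and the part of erythroid cells was not tested.

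In a list of surface receptors, made up of 8 growth factor and cytokine receptors and the integrin Itgam, 4 of 9 rose and 0 fell in sick KD against young KD mice, where 9.45% of all genes were called higher. By edgeR, 0 of 9 were called between old KO and sick KD mice. The 4 were Flt3 (0.65), Csf2ra (0.57), Il6ra (0.50) and Csf2rb (0.39), named after their values were seen. Azurophil granule genes, the early granule set of promyelocytes, rose in 4 of 8 cases in sick KD against young KD mice, and specific and gelatinase granule genes, the late set that C/EBPε serves, rose in 5 of 12 cases, with 0 that fell in either. The other 7 specific and gelatinase granule genes were not called. Sick KD mice overlapped with young KD mice in Ltf, Camp, Ngp and Mmp9 of this set, named after their values were seen. Ltf read 24.0 and 10.1 CPM in young KD against 23.1 and 6.91 in sick KD mice. In the same order, Camp read 7.62 and 3.52 against 9.42 and 3.07. Ngp read 21.7 and 12.2 against 30.0 and 9.30, and Mmp9 7.40 and 6.50 against 6.91 and 1.66. The specific granule protein Lcn2 read 71.9 and 74.8 CPM in young KD, 71.3 and 90.4 in young KO, 418 and 200.5 in sick KD and 26.6 and 43.7 in old KO mice. Its groups overlapped only between young KD and young KO. Lcn2 differed by -3.15 on the log2 scale between old KO and sick KD mice, Chil3 by -2.12 and Mmp8 by -0.89 (SE 0.39, 0.30 and 0.20, edgeR adjusted p = 0.00546, 0.00776 and 0.0289). In the azurophil set, Ms4a3 differed by -0.94 and Elane by -0.69 (edgeR adjusted p = 0.00966 and 0.0455).

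Among monocyte genes of the classical set, Fn1 differed by -0.90, Klf13 by -0.70 and Ms4a6c by -0.58 between old KO and sick KD mice (edgeR adjusted p = 0.0219, 0.0188 and 0.0301), with 3 lower and 0 higher of 12. Of the 10 genes of the patrolling set, served by Nr4a1, Cx3cr1 was higher in old KO by 1.18 and Spn by 0.67, while Fcgr4 and Itgal differed by -0.70 and -0.62 (edgeR adjusted p = 0.00628, 0.0495, 0.0401 and 0.0188), so that 2 were higher and 2 lower. Over all genes 9.93% were higher and 8.22% lower in this comparison, and the difference between the lists was not tested. Between young KO and young KD mice 0 genes of any of the 21 lists were called by edgeR. Between old KO and young KO mice, Spib (-2.42) and Ets1 (-0.74) fell among the Ets relatives and Trib2 (-1.04) among the partners (edgeR adjusted p = 0.0363, 0.0396 and 0.0420), beside 10 of 12 B cell markers. Over all genes, 0.606% were called lower there. The remaining lists held, in sick KD against young KD mice, 1 higher and 1 lower of 6 plasma cell, 0 and 5 of 10 T and NK cell, 0 and 0 of 8 megakaryocyte, 1 and 1 of 8 eosinophil, basophil and mast cell, and 0 and 0 of 8 stem and progenitor cell markers. The shares over all genes in that comparison were 9.45% higher and 11.4% lower.

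**Figure D5:**
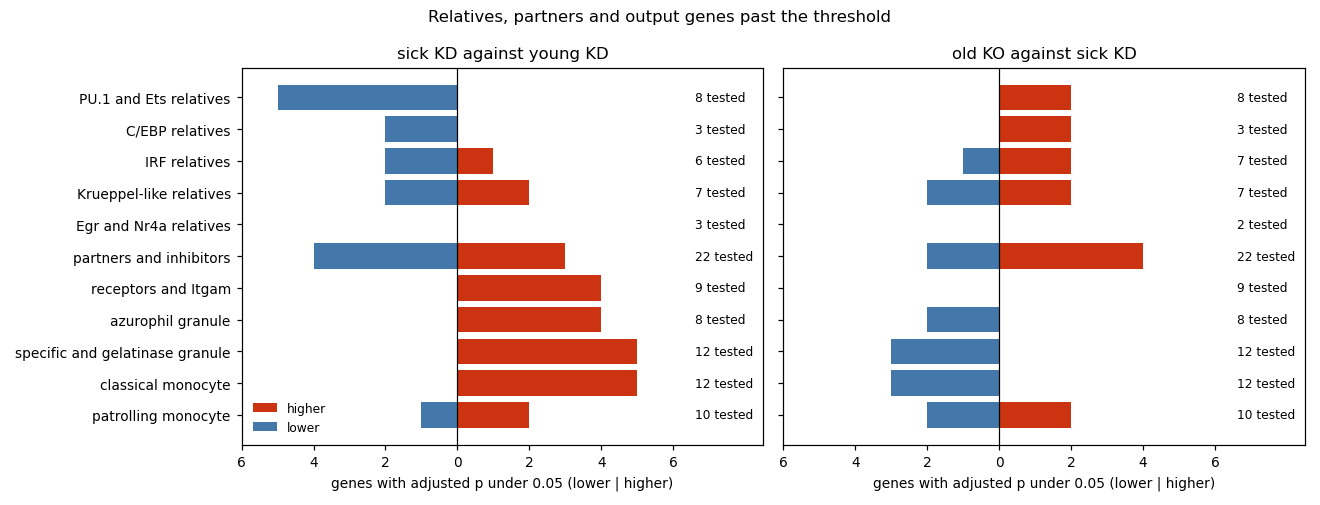
Number of genes of each list of relatives, partners, receptors and output genes with an adjusted p under 0.05 by edgeR, lower to the left and higher to the right, with the number tested beside each bar. Ets relatives have 5 lower genes in sick KD against young KD mice, and in that panel the bars of the 2 granule lists and the classical monocyte list point to the right, while in the panel of old KO against sick KD mice they point to the left.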

How the data were processed

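RNA-seq libraries of total BM were made by the authors with a stranded poly(A) kit, aligned to mm10 (GRCm38) with TopHat2 2.0.10, processed with SAMtools and counted on Ensembl genes with HTSeq. The strand setting, counting mode and Ensembl release are not given in the sources used here. The deposited values are raw counts per gene, 1 file per mouse, with 5 tallies of unassigned reads that were kept out of library sizes. The authors' DESeq results were not used.

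Symbols and coordinates came from GENCODE M21 on GRCm38 (40340 of 41214 identifiers), and promoters from RefSeq GRCm38.p6, where 7 of the 10 factors matched. Mice were grouped by their labels. Each library is 1 mouse, so p-values rest on the spread between 2 mice per group. The spread of each gene was moderated with that of all genes in the fit, so a p-value does not measure its 2 mice alone. Counts were normalized by TMM, filtered with filterByExpr by group and tested with edgeR 4.0.16 (R 4.3.3) by the quasi-likelihood test with Benjamini-Hochberg adjustment. Each comparison used its own 4 libraries and the interaction all 8. All 10 factors passed the filter on low counts in each comparison. Each standard error was derived from the log2 fold change and the F of its test. An exact permutation test of 2 against 2 mice gives a two-sided p of at least 0.333 and was not used. With 26642067 counts or more per library, counting limits only the scarce genes, Egr2 among them.

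The 10 factors, the 21 gene lists and the tests were chosen with earlier results of these data known. From each list, at most 4 genes were named by rule. They had the largest absolute change among those called between old KO and sick KD, with a mean of at least 5 CPM. Other genes of the lists were named after their values were seen. Xbp1, Tcf4, Fos and Jun are among these, though the text does not say so where they appear. Spic and Klf1 and a few others stand in 2 lists. For Spi1, Cebpe and Irf8 the 3 nearest profiles were taken. Alternatives were RLE normalization, DESeq2 1.42.0, no filter on low counts (a minimum of 1 count), all 8 libraries in 1 fit, a pseudocount of 5 in place of 1 for the profiles, and leaving out each library; taking the dependence on GC content, length and span out of each library was added after the data were seen. The scripts were tested on simulated data.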

Additional observations from a re-analysis of the deposited data

Results flagged for a closer look

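The interaction of Irf4 is the result that differed between groups of mice under the same contrast. The difference of KO from KD was 1.74 on the log2 scale between old KO and sick KD mice and -0.32 between young KO and young KD mice, and the test of the change itself gave 2.04 (SE 0.28, edgeR adjusted p = 0.0127). Markers of other cells moved in the same interaction, in which 4.32% of all genes were called higher, and their part in it was not tested.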

How the results depend on the processing

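No paired analysis was possible because each mouse has its own number in the labels, which occurs in 1 group only. With 2 mice per group, leaving out 1 leaves a single mouse that is assumed to vary like the others, and small differences turn easily. Irf4 kept its direction and its call in sick KD against young KD and in old KO against sick KD under all alternatives run, from -3.17 to -2.54 and from 1.46 to 2.09 with 1 library left out. Depth limits only Egr2 among the factors. With a pseudocount of 5, 5 of the 9 nearest profiles were the same genes.

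The factors called between old KO and sick KD were 1, but 2 by DESeq2, 3 without the filter, 3 with all 8 libraries in 1 fit, 4 with the dependence on GC content, length and span taken out, and 1 to 3 with 1 library left out. Those between sick KD and young KD were 3, but 6 with that dependence taken out and 1 to 6 with 1 library left out. Between young KO and young KD 0 were called, and 1 without the filter. Between old KO and young KO 0 were called, 1 by DESeq2, 1 without the filter and 0 to 1 with 1 library left out. For the interaction 1 was called, 3 without the filter, 2 with that dependence taken out and 0 to 2 with 1 library left out.

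Over all genes, the calls between young KO and young KD were 6, and 27 by DESeq2, 119 without the filter, 3 with all 8 libraries and 2 to 8 with 1 left out. Between old KO and sick KD they were 2626, and 4325 without the filter, 4200 with all 8 libraries and 1221 to 2795 with 1 left out (1221 without sick KD replicate 1, 1725 without old KO replicate 1). Between sick KD and young KD they were 3063, and 1316 (without young KD replicate 1) to 3401 with 1 left out. Between old KO and young KO they were 138, and 383 by DESeq2, 796 without the filter and 17 (without young KO replicate 2) to 307 with 1 left out. For the interaction they were 1122, and 1951 by DESeq2, 2919 without the filter, 1908 with that dependence taken out and 106 (without young KD replicate 1) to 1614 with 1 left out. Without the filter the higher share of calls between old KO and young KO was 52.0% in place of 34.8%, and with all 8 libraries that of the young comparison was 33.3% in place of 50%. The cause of these shifts was not tested.

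Some differences that were not called changed sign. With that dependence taken out, Spi1 was at -0.0017 between young KO and young KD and Irf8 at -0.19 between old KO and sick KD. With 1 library left out, the young difference ran from -0.13 to 0.34 for Cebpb, -0.147 to 0.0465 for Cebpd, -0.0801 to 0.241 for Irf8 and -0.123 to 0.0926 for Klf4. Old KO against sick KD ran from -0.311 to 0.0613 for Spi1, -0.19 to 0.45 for Cebpa, -0.18 to 0.21 for Irf8 and -1.23 to 0.25 for Nr4a1. Sick KD against young KD ran from -0.0046 to 0.37 for Spi1, -0.52 to 0.13 for Cebpb, -0.15 to 0.24 for Irf8 and -0.31 to 0.81 for Nr4a1. Old KO against young KO ran from -0.16 to 0.40 for Cebpa, -0.0343 to 0.353 for Cebpb, -0.16 to 0.14 for Irf8, -0.16 to 0.20 for Klf4, -0.25 to 0.33 for Egr2 and -0.28 to 1.07 for Nr4a1. The interaction ran from -0.339 to 0.0215 for Spi1, -0.561 to 0.0624 for Cebpa, -0.323 to 0.0267 for Cebpd, -0.26 to 0.12 for Irf8 and -0.64 to 0.84 for Nr4a1.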
